A study of Caenorhabditis elegans with 45 samples.

Results

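The genes described here are the nematode-specific peptide genes of groups A to E (symbols starting nspa-, nspb-, nspc-, nspd- or nspe-) in Caenorhabditis elegans. They were chosen by symbol alone, and 44 of the 18589 genes in the deposited normalized table carried such a symbol: 5 nspa, 6 nspb, 18 nspc, 10 nspd and 5 nspe genes. The annotation listed 58. The other 14 had fewer than 10 estimated reads over all libraries, the minimum for entry to the table, and 3 of those (nspa-9, nspa-10 and nspe-8) had 0 reads. RNA was sequenced from whole hermaphrodites on day 1 of adulthood, with 3 replicates in each of 15 groups and 45 libraries in all. The groups joined 5 isogenic strains, the laboratory reference N2 and the wild strains JU1088, EG4348, CB4856 and QX1211, to 3 feeding treatments. Larvae were grown at 20°C on HT115 bacteria that carried the empty vector pL4440 (control), or pL4440 with a fragment of par-1 (PAR1) or of pos-1 (POS1). The study chose the strains for unequal competence for RNA interference (RNAi) in the germline, with JU1088 and N2 competent, EG4348 intermediate and CB4856 and QX1211 largely incompetent. Before the experiment QX1211 was kept at 18°C and the other strains at 20°C, and the replicates were replicate plates handled together, so that p-values cover the spread between plates.

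Nematode-specific peptide families are groups of short predicted proteins that were named from sequence similarity and that have no known relatives outside nematodes. Most have no assigned function. The nspd genes are the best described of the 5 groups: in Caenorhabditis they are known for high expression in the male germline and for small proteins with little stable fold, and the related nspf products sit in the membranous organelles of sperm. In hermaphrodites sperm are made before adulthood and stored, while the adult germline makes oocytes. The targets of the 2 RNAi treatments act later: par-1 encodes a polarity kinase and pos-1 an RNA-binding protein, both supplied by the mother and needed in the embryo. Levels below are normalized counts, the estimated reads of a gene divided by a library size factor and corrected for transcript length. They compare 1 gene across libraries and do not compare genes with each other, for which the length-corrected abundance that Salmon gives as TPM was used.

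Libraries held 4268834 to 17864647 estimated reads (median 7478529). The reads of pos-1 fell in the libraries labelled POS1 in N2 (log2 fold change -2.57), JU1088 (-3.59) and EG4348 (-1.23) and did not pass the test in CB4856 (-0.05, adjusted p = 1) or QX1211 (-0.13, adjusted p = 0.971). The reads of par-1 passed the test in none of the 5 strains under the label PAR1, with log2 fold changes from -0.18 to 0.24 (edgeR quasi-likelihood test, smallest adjusted p = 0.497), so its level did not mark those libraries. All 8 intestine, 5 hypodermis and 13 oocyte and eggshell markers were in the table, and so were 41 of 42 sperm marker symbols, which name 42 genes because ssp-9 names 2. Since whole animals were extracted, fewer cells of a type and less RNA per cell cannot be told apart.

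The nspc genes carried nearly all of the signal, with 99781 of the 103889 estimated reads of the 58 genes over the 45 libraries. The nspe genes had 2255, the nspd genes 1295, the nspa genes 372 and the nspb genes 185. On the TPM scale, which is per effective length, nspc-20 had the highest mean of all 44 genes (313), followed by nspc-14 (264), nspc-13 (209.9) and nspc-12 (206), and the highest outside nspc was nspe-1 (82.0). The 18 nspc genes lie in 3 tight clusters on the X chromosome (WBcel235). The first, called X1 here, spans 8534672 to 8542283 and holds nspc-1, 2 genes named nspc-2 (C03G5.9 and C03G5.13), nspc-3, nspc-4, nspc-5 and nspc-7. The second, X2, spans 12342946 to 12361159 and holds nspc-9, nspc-10, nspc-12, nspc-13, nspc-14 and nspc-15. The third, X3, spans 14523575 to 14530207 and holds nspc-16 to nspc-20.

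Some features of these genes bear on every value. Paralogs share sequence, and reads that fit several transcripts were divided among them by estimation, so that a level of 1 paralog is less certain than a sum. The 2 nspc-2 genes, the 2 nspa-1 genes and the 2 nspa-5 genes had the same estimated reads in all 45 libraries, which makes each pair 1 measurement. The transcripts are also short. The nspc models are 306 to 447 nucleotides long, the nspd models 213 to 222 and the nspa models 105, whereas the mean fragment length of the libraries was 329.5 to 352.1 nucleotides. TPM divides by an estimated effective length, which was shorter. It was 54.2 to 123.4 nucleotides for the nspc genes, 34.5 to 80.9 for nspd and 21.0 to 22.1 for nspa. A ranking of genes by TPM depends on that estimate. In addition nspc-15 overlaps F19H6.6 on the same strand and nspb-2 overlaps irld-7 on the same strand.

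In the control, most members that differed between strains were nspc genes, and they differed in both directions. The test for any difference between the 5 strains (edgeR quasi-likelihood F test, Benjamini-Hochberg adjustment over all genes, adjusted p under 0.1) called 27 of the 37 members with at least 10 reads over the 15 control libraries, against 35.1% of the 16490 genes tested. It called 17 of 18 nspc genes, the exception being nspc-5 (adjusted p = 0.43), and 2 of the 17 are the nspc-2 pair, 1 measurement. It called 6 of 10 nspd genes, 2 of 4 nspe genes and the 2 nspa-1 genes, which are 1 measurement, and it did not call nspb-2, the nspb gene with enough reads to be tested. Against N2, 13 members were called in JU1088 (4.68% of all genes), 16 in EG4348 (13.4%), 15 in CB4856 (9.86%) and 18 in QX1211 (21.1%). Of these calls 11, 14, 13 and 16 were nspc genes. They went both ways. In JU1088, 7 nspc genes were higher (1.8% of all genes) and 4 lower (2.89%), and in EG4348 9 were higher (4.33%) and 5 lower (9.06%). CB4856 had 7 higher (4.79%) and 6 lower (5.07%), and QX1211 10 higher (9.59%) and 6 lower (11.5%). Without control replicate 3 of JU1088 the count for that strain was 8.

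Summed over the 18 genes, the nspc level was lowest in N2. The control libraries of N2 had sums of 1605, 1518 and 1446 normalized counts, those of JU1088 1904, 2034 and 1965, and those of EG4348 2223, 2115 and 2134. In CB4856 the sums were 1993, 2012 and 2076 and in QX1211 2418, 1972 and 2259. Every N2 library lay below every library of the other strains, whereas the 4 wild strains overlapped in part. Relative to the N2 mean the sums were 1.29 ± 0.043 (SD, n = 3) in JU1088 and 1.42 ± 0.038 in EG4348. CB4856 had 1.33 ± 0.028 and QX1211 1.45 ± 0.149. On the TPM scale the ratios were 1.20 in JU1088 and 1.31 in EG4348, and 1.22 and 1.41 in CB4856 and QX1211. Since these are sums over genes chosen by name, they are given as a description without a test.

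**Figure D1:**
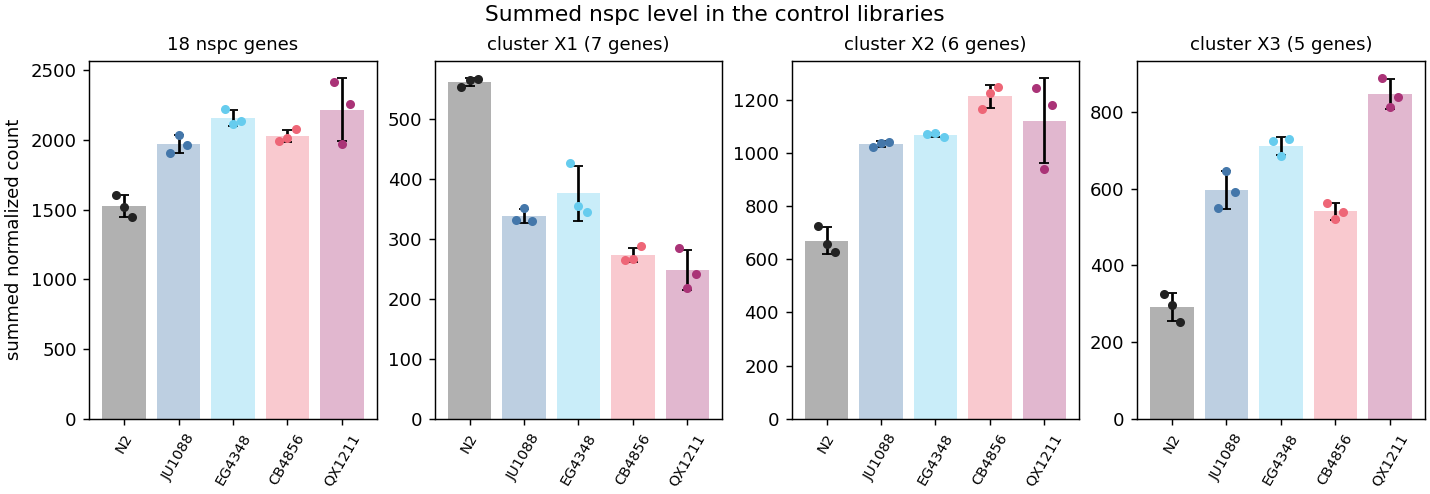
Summed normalized count of the 18 nspc genes and of the clusters X1, X2 and X3 in the control libraries of each strain; bars are means, error bars the SD of 3 libraries and points the libraries. N2 is lowest in the total, in X2 and in X3, and highest in X1, where its 3 libraries sit between 553 and 565.

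The 3 clusters did not follow the same order of strains. Cluster X1 was highest in N2, where the 3 control sums were 553, 564 and 565, and had its lowest mean in QX1211, with 284, 218 and 241, which overlapped CB4856. The sums in EG4348 (427, 355 and 344), JU1088 (332, 350.4 and 329) and CB4856 (265, 266 and 287) lay between them, and no wild strain overlapped N2. In clusters X2 and X3 N2 was lowest. For X2 the N2 sums of 727, 657 and 628 were the lowest, against means from 1035 ± 10.3 in JU1088 to 1213 ± 43.0 in CB4856 (SD, n = 3). For X3 the N2 sums of 326, 297 and 253 were again the lowest, and the highest were those of QX1211, 888, 813 and 838. On the TPM scale cluster X1 supplied 45.1% ± 2.5 (SD, n = 3) of the summed nspc TPM in N2 but 21.9% ± 0.48 in JU1088. The other wild strains had 21.7% ± 1.96 (EG4348), 17.4% ± 0.541 (CB4856) and 13.4% ± 0.653 (QX1211). The share of X3 went from 18.5% ± 1.49 in N2 to 39.1% ± 2.52 in QX1211. Of the summed normalized counts, X1 supplied 36.9% ± 2.34 in N2 and from 11.2% (QX1211) to 17.4% (EG4348) in the wild strains.

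Within X1, whose genes were singled out after their values were seen, most genes shared 1 pattern. The first gene of the cluster, nspc-1, had 119.1, 123 and 124 normalized counts in the N2 control, and its means in the wild strains were 39.9 ± 14.0 in CB4856 to 65.03 ± 15.9 in EG4348 (SD, n = 3). It was lower than in N2 in all 4 wild strains, with log2 fold changes from -1.63 ± 0.24 (SE, adjusted p = 0.000271) in CB4856 to -0.89 ± 0.23 (adjusted p = 0.0244) in EG4348. The nspc-2 pair (1 measurement) and nspc-4 were likewise lower in every wild strain than in N2. For nspc-2 the difference was largest in QX1211, from 85.3, 89.1 and 93.9 to 19.6, 16.3 and 20.8 normalized counts (log2 fold change -2.23 ± 0.19, adjusted p = 4.67e-07). The gene nspc-7 passed the test in QX1211 alone (-0.84 ± 0.17, adjusted p = 0.003). The exception was nspc-3, which sits between nspc-2 and nspc-4 and went the other way. It had 8.25, 4.1 and 8.15 normalized counts in N2, 63.8, 57.0 and 51.1 in EG4348 and 51.3, 33.5 and 59.7 in QX1211, and was higher in all 4 wild strains, by 2.09 ± 0.35 in CB4856 to 3.09 ± 0.34 in EG4348 on the log2 scale (largest adjusted p = 0.000928). The low nspc-5 passed no comparison with N2.

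**Figure D2:**
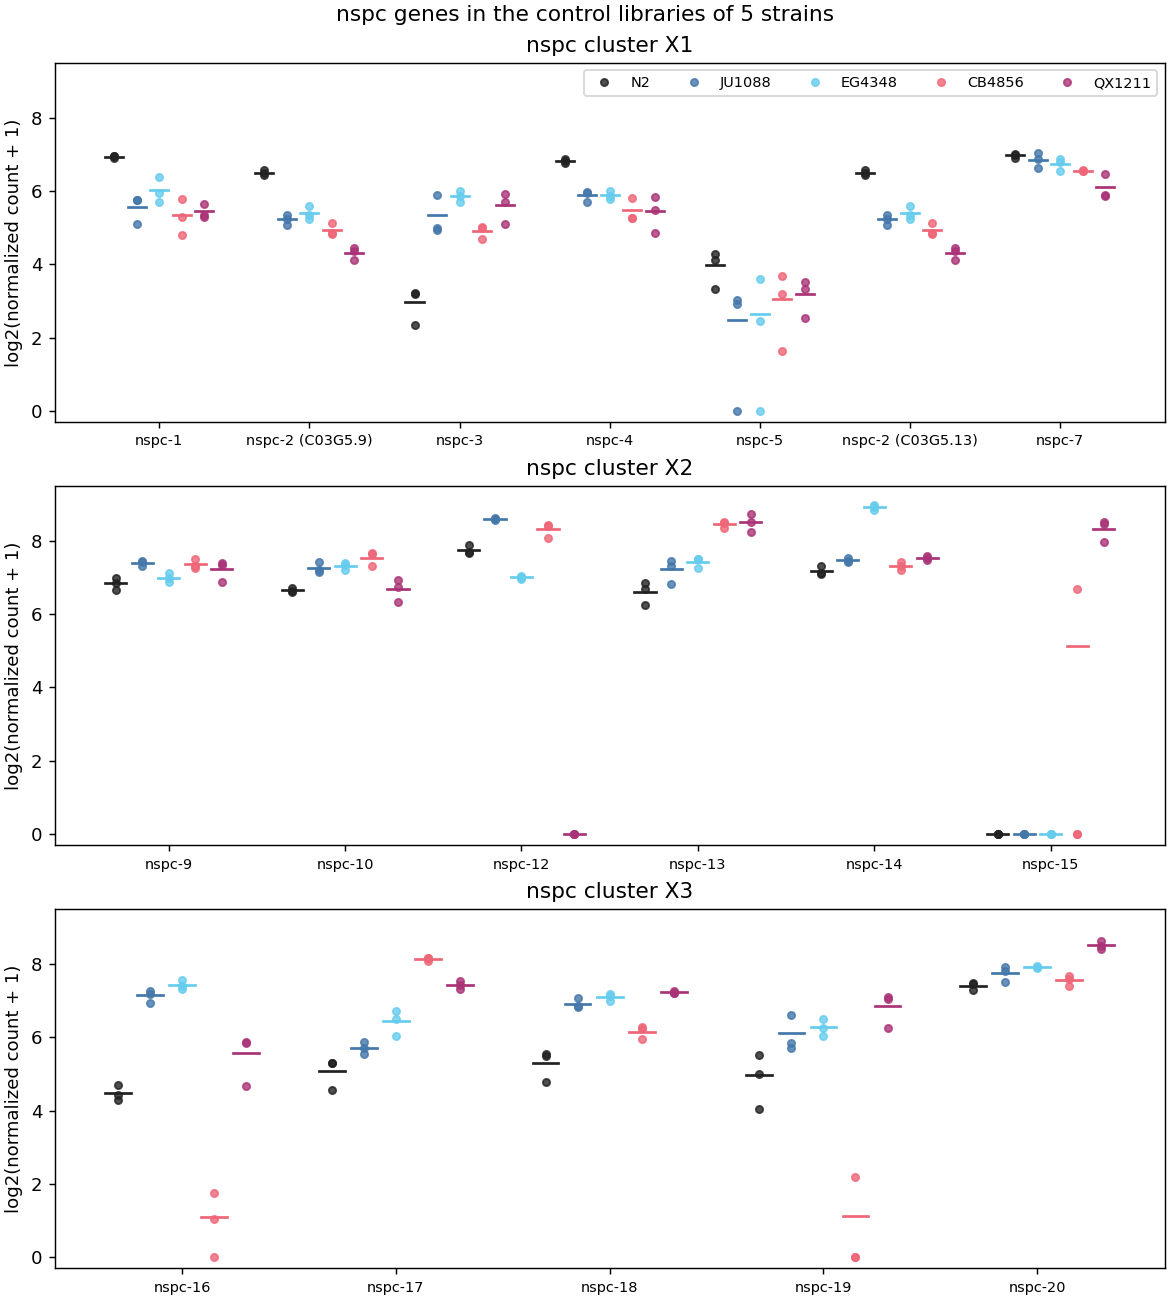
Level of each nspc gene in the control libraries, as log2(normalized count + 1), by cluster in chromosome order; points are libraries, dashes the log2 of the mean plus 1, and colours the strains. In X1 all genes but nspc-3 are highest in N2; in X2 nspc-12 is at 0 in QX1211 and nspc-15 at 0 in N2, JU1088 and EG4348; in X3 nspc-16 and nspc-19 are near 0 in CB4856.

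Cluster X2 held the sharpest contrast, between nspc-12 and nspc-15, at opposite ends of a run of 4 neighbouring nspc genes. The gene nspc-12 had 237, 204 and 207 normalized counts in the N2 control, 395, 388 and 383 in JU1088, 129.8, 123 and 131 in EG4348 and 348, 269 and 341 in CB4856. In QX1211 it had 0 reads in each of the 9 libraries, RNAi libraries included. Against the limit that 0 reads over the 3 control libraries allow (3 reads over the group, counting error only), the share of library reads that fell on nspc-12 was at least 175-fold higher in N2 than in QX1211, at least 311-fold higher in JU1088, at least 98.8-fold in EG4348 and at least 250.4-fold in CB4856. Its strain test had the smallest adjusted p of all members (1.51e-10). The 4 strains that had it differed too: EG4348 was lower than JU1088 (-1.59 ± 0.12 on the log2 scale, adjusted p = 1.12e-06), and JU1088 and CB4856 did not pass the test (CB4856 against JU1088 -0.28 ± 0.11, adjusted p = 0.222).

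The gene nspc-15 (WBGene00009639, X from 12360744 to 12361159) had reads in QX1211, where nspc-12 had none. It had 0 reads in all 9 libraries of N2, of JU1088 and of EG4348, 363, 249 and 353 normalized counts in the QX1211 control, and 343, 250.1 and 311 and 347, 301 and 333 under PAR1 and POS1. Its share of library reads in QX1211 was at least 393-fold higher than in N2 and at least 263-fold higher than in JU1088. Against EG4348 it was at least 382-fold higher (strain test, adjusted p = 0.00319). Whether nspc-12 or nspc-15 is missing from, or poorly mapped in, a wild strain at 0 reads was not tested. CB4856 was split within groups. Its normalized counts of nspc-15 were 0, 103 and 0 in the control, 0, 46.1 and 37.1 under PAR1 and 0, 80.3 and 124 under POS1, so that 4 of 9 libraries had 0 reads, and its comparison with N2 did not pass the test (adjusted p = 0.131), although it passed without CB4856 control replicate 1 or 3. Where nspc-15 had reads in CB4856, nspc-12 was often lower, as in the POS1 libraries with 353, 256 and 219 normalized counts. The sum of both genes, formed after their values were seen, varied less: over the 9 CB4856 libraries it ran from 336 to 453, with a coefficient of variation of 11.3%, against 21.2% for nspc-12 and 112% for nspc-15 alone. On the TPM scale this sum ran from 306 to 440 and was less steady in the control. There its mean was 335 ± 48.8 (SD, n = 3), against 354 ± 15.9 in normalized counts. DESeq2 gave nspc-15 no adjusted p in the control, and under that tool it stays uncalled.

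**Figure D3:**
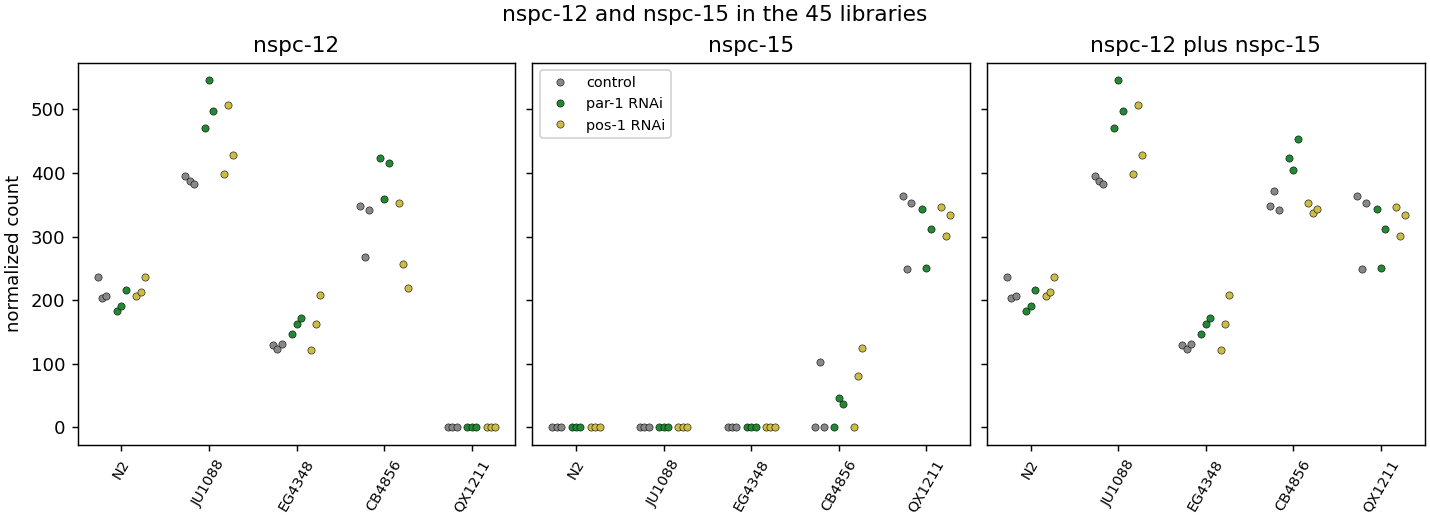
Normalized counts of nspc-12, nspc-15 and their sum in the 45 libraries by strain, with colours for the treatment and points for libraries. All 9 QX1211 libraries are at 0 for nspc-12, all 27 libraries of N2, JU1088 and EG4348 are at 0 for nspc-15, and in CB4856 the sum stays between 336 and 453 while nspc-15 runs from 0 to 124.

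The neighbours of nspc-12 in X2 varied by strain in other ways. The gene nspc-13 had 102, 115 and 75.2 normalized counts in N2 and was higher in CB4856, with 360.5, 324 and 368, and in QX1211, with 423, 303 and 363 (log2 fold changes 1.84 ± 0.17 and 1.89 ± 0.18, adjusted p = 2.87e-06 and 1.32e-06). CB4856 and QX1211 did not differ in it beyond their spread (0.06 ± 0.16, adjusted p = 0.881). For nspc-14 it was EG4348 that stood apart. Its 3 control libraries had 506, 488 and 464 normalized counts, whereas the 12 of the other strains lay between 135 and 192. EG4348 was above N2 by 1.77 ± 0.10 on the log2 scale (adjusted p = 7.96e-09) and above each of the other 3 wild strains (adjusted p from 1.13e-08 to 6.63e-08). The remaining X2 genes, nspc-9 and nspc-10, varied least within the cluster, with highest strain means 1.46 and 1.87 times the lowest.

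Cluster X3 also held genes near 0 in 1 strain, here CB4856. The gene nspc-16 had 0, 2.36 and 1.05 normalized counts in the CB4856 control, 0 to 3.60 estimated reads a library, against 169, 158 and 187 in EG4348, 145, 154 and 122 in JU1088, 57.4, 24.6 and 56.9 in QX1211 and 24.7, 20.5 and 18.5 in N2. CB4856 was lower than each of the others, with log2 fold changes of -3.90 ± 0.50 against N2 and -6.91 ± 0.41 against EG4348 (adjusted p = 6.8e-05 and 1.25e-08). Further along the cluster nspc-19, singled out after its values were seen, had 0, 3.55 and 0 in CB4856 and strain means of 30.3 ± 14.4 to 114 ± 33.4 elsewhere (SD, n = 3). Between them nspc-17 did the opposite. CB4856 was its highest strain, with 284, 285 and 271 normalized counts, followed by QX1211 with 184, 173 and 159 and EG4348 with 104, 65.1 and 90.1, while JU1088 (51.2, 58.1 and 45.4) and N2 (38.5, 38.5 and 22.4) were lowest and did not differ beyond their spread (adjusted p = 0.178). CB4856 exceeded N2 by 3.06 ± 0.19 on the log2 scale (adjusted p = 2.64e-08).

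Summed, nspc-16, nspc-17 and nspc-19 gave 284, 291 and 272 in the CB4856 control, within the range of the other wild strains (219 to 374) and above N2 (108, 74.5 and 71.8). This sum, too, was formed after its genes were seen. The last gene of the cluster, nspc-20, which had the highest mean TPM of the members, was present in every library. It had 174, 177 and 154 normalized counts in N2 and 361, 392 and 339 in QX1211, where it was higher than in all other strains (log2 fold change against N2 1.10 ± 0.11, adjusted p = 4.18e-06). JU1088 and CB4856 did not pass the test against N2 in this gene. For nspc-18 all 4 wild strains were above N2, by 0.84 ± 0.18 to 1.93 ± 0.18.

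Genes beside the clusters gave a local comparison. Of the genes within 20 kb of a cluster that are not members, the strain test called 1 of 6 near X1 (sdha-1, a subunit of succinate dehydrogenase), 7 of 9 near X2 and 2 of 9 near X3, beside 35.1% of all genes tested. The 7 near X2 include F19H6.6, which overlaps nspc-15 on the same strand and can share its reads. Of the non-members with a mean of at least 20 normalized counts (9899 genes), the 3 whose level over the 45 libraries was most like that of nspc-15 by rank were K09C6.9 on chromosome V (Spearman rho = 0.79), Y45F10C.2 on chromosome IV (0.79) and ssp-37 on chromosome I (0.79). Their means were highest in QX1211, as that of nspc-15 was: 170.2 normalized counts for K09C6.9, 574 for Y45F10C.2 and 289 for ssp-37, with 44.6, 70.2 and 35.9 in N2. These ranks share 31 libraries at 0 for nspc-15, and the libraries of a strain share its genome.

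The 22 genes of the other nematode-specific peptide groups in the table (nspf to nspz) went the other way from the nspc sum. Their control sums were 4607, 4647 and 4079 in N2, the highest, and 3106, 2652 and 3196 in QX1211, the lowest. Of the 20 that were tested, 13 were called by strain, beside 35.1% of all genes. Against N2 the calls were 4 lower and 1 higher in JU1088 and 8 and 1 in EG4348. They were 3 and 0 in CB4856 and 7 and 1 in QX1211. Of all genes, 2.89%, 9.06%, 5.07% and 11.5% were called lower, in the same order of strains. The median log2 fold change of the 18 nspc genes against N2 was lowest in CB4856 (0.15) and highest in JU1088 (0.45), with 0.35 for EG4348 and 0.38 for QX1211, beside medians of -0.03 to 0.01 over all genes. The nspc-12 and nspc-15 values in these medians depend on the fit where a strain is at 0.

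The 5 nspe genes in the table lie within 16.9 kb on chromosome II (12612518 to 12629384) and nspe-1 had the highest TPM among them. It had 5.69, 42.9 and 48.0 normalized counts in the N2 control and 6.21 to 41.4 in the wild strains, and the strain test did not call it (adjusted p = 0.499). The N2 libraries alone spanned its whole range, and without control replicate 1 of N2 the adjusted p was 0.036. The gene nspe-4 was called, with 23.3, 14.9 and 5.2 in N2 and 0.913, 2.8 and 2.15 in CB4856 (log2 fold change -2.75 ± 0.60, adjusted p = 0.00858). It was also called lower in JU1088 (-2.09 ± 0.63, adjusted p = 0.097), but that call was lost with DESeq2, with the replicate block, and without any 1 of the 3 JU1088 control replicates or N2 control replicate 1 or 2. For nspe-2 the order was another: EG4348 was highest with 15.0, 9.83 and 6.15 and QX1211 lowest with 0.707, 3.61 and 0 (strain test, adjusted p = 0.0581). That call was lost without QX1211 control replicate 1 or 3 or EG4348 control replicate 1 or 2, with adjusted p up to 0.184. It was also lost with the filterByExpr minimum on low counts.

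The 10 nspd genes are scattered over chromosomes I, II, III and IV and were low, with means of at most 4.46 normalized counts over the 45 libraries (nspd-1). Their control sums were 59.0, 25.4 and 13.7 in N2, 7.57, 10.6 and 35.1 in JU1088, 5.99, 5.86 and 7.73 in EG4348, 36.7, 42.5 and 66.3 in CB4856 and 41.6, 41.8 and 32.6 in QX1211. EG4348 was the lowest strain and overlapped JU1088 but not N2, CB4856 or QX1211. N2 and JU1088 each ranged widely between replicates. The strain test called nspd-1, nspd-4, nspd-6, nspd-8, nspd-9 and nspd-10. For nspd-4 all 3 EG4348 control libraries were at 0, against 3.7, 4.67 and 10.4 in CB4856 and 8.55, 3.64 and 7.77 in QX1211 (adjusted p = 0.0293). For nspd-6 it was JU1088 that had 0 in all 3 control libraries, and QX1211 was highest with 11.7, 9.89 and 2.74 (adjusted p = 0.0111). For nspd-9 the 3 N2 control libraries were at 0 and CB4856 had 4.64, 5.27 and 6.25 (adjusted p = 0.0215). The call of nspd-1 (adjusted p = 0.0674) was lost without CB4856 control replicate 2 or 3 or any of the 3 EG4348 control replicates, with adjusted p up to 0.219. All 6 nspd calls were lost with the filterByExpr minimum on low counts. That of nspd-8 was also lost with DESeq2 and without CB4856 control replicate 3 or any of the 3 QX1211 control replicates. That of nspd-10 was also lost with DESeq2, with the replicate block, and without EG4348 control replicate 1 or 3, N2 control replicate 1 or 2, or QX1211 control replicate 1. The genes nspd-2 and nspd-3 did not pass (adjusted p = 0.11 and 0.286), and nspd-2 passed without N2 control replicate 1 (0.0323), N2 control replicate 3 (0.0456) or JU1088 control replicate 3 (0.0347), with no transcript length correction (0.0772) and with no filter on low counts (0.095). The gene nspd-3 passed without N2 control replicate 2 (0.0572).

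The nspd sums moved with sperm markers from library to library. The 30 msp genes, which encode the major sperm proteins that drive the crawling of nematode sperm, summed to 513, 220.3 and 131 normalized counts in the N2 control, in the same order of replicates as the nspd sum. EG4348 was lowest here too (23.7, 53.6 and 38.6) and CB4856 highest (382, 427 and 871). In 13 of the 15 groups the library with the highest msp sum was also the one with the highest nspd sum, and in 11 the lowest was the same. The spread within a group could be wide: in CB4856 under POS1 the msp sums were 428, 15.8 and 151 and the nspd sums 44.4, 0 and 20.9. Of the 41 sperm marker genes tested, 34 were called by strain, beside 35.1% of all genes. Against N2, 20 were lower in EG4348 and none higher, beside 9.06% and 4.33% of all genes. Their median log2 fold change was -2.85, beside -2.18 for the nspd genes and -0.03 for all genes. The part of the sperm markers in the nspd differences was not tested.

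**Figure D4:**
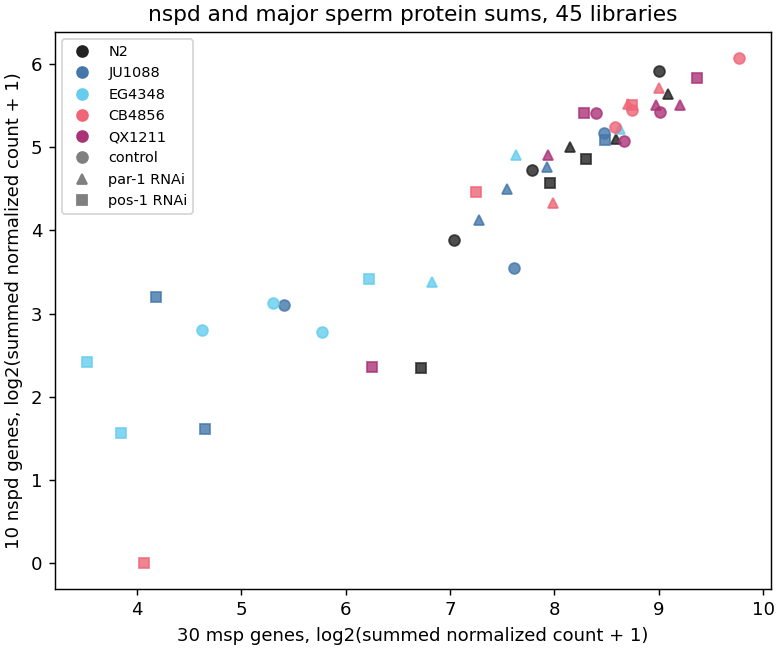
Summed level of the 10 nspd genes (y) against that of the 30 msp genes (x) in the 45 libraries, both as log2(summed normalized count + 1); colours are strains and symbols treatments. Most libraries low in msp genes are also low in nspd genes, and the library at 0 on the y axis is POS1 replicate 2 of CB4856.

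The nspa and nspb genes were close to the limit of detection. For the nspa-1 pair (1 measurement) CB4856 was highest with 11.0, 7.05 and 11.5 normalized counts, N2 had 5.85, 2.5 and 0 and JU1088 was at 0 in all 3 control libraries. The strain test called it (adjusted p = 0.0111), while no single comparison with N2 passed (smallest adjusted p = 0.18, for CB4856). Against N2, CB4856 passed without N2 control replicate 1, and JU1088 passed without N2 control replicate 3. The strain call was lost with the filterByExpr minimum on low counts. CB4856 passed against JU1088, EG4348 and QX1211 (adjusted p = 0.0155, 0.0485 and 0.0325). Against the limit of 0 reads in JU1088, its share of library reads in CB4856 was at least 6.78-fold higher. The nspa-5 pair stayed at or below 2.78 normalized counts in every control library. Among the nspb genes nspb-2 was highest, with 1.41, 10.6 and 4.87 in QX1211 and 2.7, 2.92 and 6.25 in CB4856 against 1.85, 0.817 and 2.04 in N2, and it did not pass the strain test (adjusted p = 0.168), although QX1211 passed against JU1088 (log2 fold change 3.03 ± 1.17, adjusted p = 0.0959). Without QX1211 control replicate 1 nspb-2 passed the strain test (adjusted p = 0.0696). The genes nspb-6 and nspb-12 did not exceed 1.77 in any control library and had too few reads there to be tested.

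Under RNAi few members passed the test. The nspa, nspb and nspd genes had means of at most 4.46 normalized counts over the 45 libraries, which limits what could be detected. Where few of all genes were called, as under POS1 outside JU1088, a count of 0 does not set the members apart. The criteria were an adjusted p under 0.1 and a change of more than 1.5-fold against the control of the same strain, in edgeR's quasi-likelihood test over 18581 genes, and all 44 members were tested. PAR1 gave 1 call among the members in JU1088, where 8.5% of all genes were called. It gave 0 calls in N2, EG4348, CB4856 and QX1211, where 1.16%, 2.38%, 4.4% and 5.15% of all genes were called. POS1 gave 1 call in JU1088 (8.23%) and 0 in N2 (0.215%), EG4348 (0.0646%), CB4856 (0.156%) and QX1211 (0.0807%). Averaged over the 5 strains, 0 members were called under PAR1 (10.3% of all genes) and 1 under POS1 (1.07%). Where no member was called, DESeq2 called 0 as well. At an unadjusted p under 0.05 there were 4 members in N2, 5 in EG4348, 7 in CB4856, 6 in QX1211 and 4 over the 5 strains under PAR1. Under POS1 there were 1 in N2 and QX1211 and 3 in EG4348 and CB4856. The share of all genes at an unadjusted p under 0.05 was not counted, here or for the interaction. These counts therefore do not show whether the members stood out. The interaction of strain and treatment called 0 members at an adjusted p under 0.1 (1.29% of all genes), 5 at an unadjusted p under 0.05, and DESeq2 called 2, nspc-4 and nspc-17. The smallest adjusted p was that of nspc-4, 0.106, which is just outside the threshold and passed it when RLE size factors or either other filter on low counts was used. With each of the 45 libraries left out in turn, nspc-4 passed the interaction test in 13 fits.

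The call in JU1088 was nspc-17 in both treatments. Its control libraries had 51.2, 58.1 and 45.4 normalized counts, the PAR1 libraries 87.7, 91.3 and 71.3 and the POS1 libraries 86.3, 89.7 and 70.8. All 6 RNAi libraries were above the 3 control libraries, which both comparisons share. The log2 fold changes were 0.71 ± 0.21 (adjusted p = 0.0283) under PAR1 and 0.71 ± 0.21 (adjusted p = 0.0323) under POS1. Both calls were lost without control replicate 3 of JU1088 (adjusted p = 0.139 and 0.163). The first was also lost without PAR1 replicate 2 (0.162), and the second without POS1 replicate 2 (0.232). In the other strains nspc-17 passed under neither treatment: in CB4856, for example, it had 330.2, 282 and 352 under PAR1, and in QX1211 137, 155 and 142.2.

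With no minimum on the fold change, 5 nspc genes rose in JU1088 under PAR1: nspc-13, nspc-14, nspc-17, nspc-18 and nspc-20, with log2 fold changes of 0.43 ± 0.13 to 0.71 ± 0.21, where 9.69% of all genes rose by that criterion. The lowest adjusted p was that of nspc-14 (0.00452), which had 171, 186 and 174 normalized counts in the control and 238, 271 and 255 under PAR1. Under POS1 nspc-14 and nspc-17 rose (6.44% of all genes). In CB4856 under PAR1 nspc-14 rose by 0.35 ± 0.12 (adjusted p = 0.0996, 4.6% of all genes). Averaged over the 5 strains, nspc-9, nspc-10, nspc-14 and nspc-20 rose under PAR1, by 0.15 ± 0.06 to 0.19 ± 0.05 on the log2 scale, beside 18% of all genes. No member fell in any of these comparisons.

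The nspc sum under PAR1 moved up in 3 strains and down in 1. In JU1088 the sums were 2355, 2772 and 2509, all above the control, in EG4348 2516, 2443 and 2444 and in CB4856 2434, 2249 and 2571, also all above. In N2 they were 1348, 1374 and 1397, all below the N2 control of 1605, 1518 and 1446. In QX1211 treated and control libraries overlapped (2347, 2008 and 2318). Relative to the control mean these were 1.29 ± 0.107 (SD, n = 3) in JU1088, 1.19 ± 0.08 in CB4856 and 1.14 ± 0.019 in EG4348. QX1211 had 1.00 ± 0.085 and N2 0.901 ± 0.016. By gene, 8 of 18 nspc genes had all 3 PAR1 libraries above all 3 control libraries in JU1088 (16.3% of all genes in the table), 7 had them in CB4856 (13.9%) and 5 in EG4348 (14%). No nspc gene had them in QX1211 (14.4%) or N2 (7.43%). In N2 and in QX1211, 2 nspc genes had all 3 below (6.9% and 7.7%). Under POS1 the sums of the 18 genes overlapped the control in all 5 strains, with ratios from 0.993 ± 0.036 in CB4856 to 1.13 ± 0.179 in JU1088. By cluster, 2 sums were above all 3 control libraries under POS1. They were X3 in JU1088 (651 to 886 against 549 to 647) and X1 in CB4856 (292 to 313 against 265 to 287). The other cluster sums overlapped the control.

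**Figure D5:**
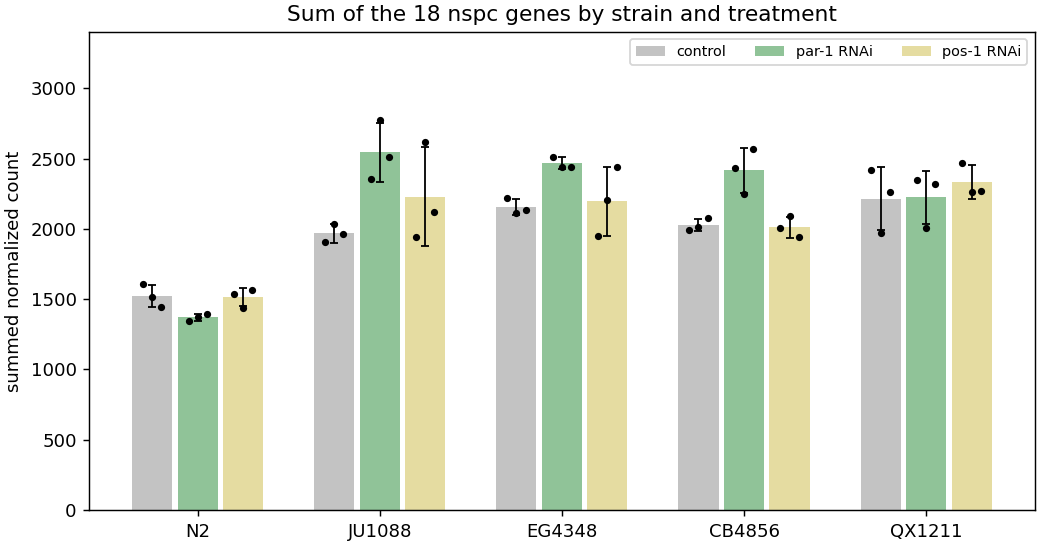
Summed normalized count of the 18 nspc genes by strain and treatment; bars are means, error bars the SD of 3 libraries and points the libraries. Under PAR1 the libraries of JU1088, EG4348 and CB4856 lie above their controls (2249 to 2772 against 1904 to 2223 over these 3 strains) and those of N2 below theirs, and under POS1 every strain overlaps its control.

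Marker lists moved in the same PAR1 libraries. The summed normalized counts of the 13 oocyte and eggshell markers were below all 3 control libraries in the 4 wild strains: 84039 to 109052 against 118390.0 to 121444 in JU1088, 111917 to 114232 against 124020.0 to 128710.0 in EG4348, 98548 to 103519 against 114712 to 115444 in CB4856 and 77046 to 87403 against 92937 to 100735 in QX1211. In N2 they overlapped (112121 to 116700.0 against 110391 to 117617). The sum of the 5 hypodermis markers did likewise. It was below the control in the 4 wild strains (in JU1088 13498 to 20230.5 against 23479 to 25762) and overlapped it in N2. By gene, 0 of the 13 oocyte and eggshell markers were called under PAR1 within any strain, beside 1.16% to 8.5% of all genes. Of the hypodermis markers, 1 was called in CB4856 and 1 in QX1211, both higher, beside 4.4% and 5.15% of all genes called. The 8 intestine markers, mostly vitellogenin genes, were above the control in N2 (916157 to 972097 against 693203 to 834677), JU1088 and EG4348 and overlapped it in CB4856 and QX1211. The 22 genes of the other nematode-specific peptide groups were above the control in all strains but QX1211, N2 included (4887 to 6972 against 4079 to 4647). The sperm markers were above the control in EG4348 alone (323 to 652 against 195 to 241) and overlapped it elsewhere. The part of these lists in the nspc sums was not tested.

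By cluster, X2 was above all 3 control libraries under PAR1 in JU1088 (1.323 ± 0.116 of the control mean), in CB4856 (1.19 ± 0.079) and in EG4348 (1.17 ± 0.039). X3 was above them in JU1088 (1.38 ± 0.186) and CB4856 (1.17 ± 0.082) and overlapped them in EG4348 (1.02 ± 0.102). X1 overlapped the control in these 3 strains, though on the TPM scale X1 in CB4856 was above it. The X1 ratios were 1.05 ± 0.176 in JU1088, 1.24 ± 0.219 in CB4856 and 1.31 ± 0.346 in EG4348. In QX1211 and N2 X1 went the other way. Its sum under PAR1 in QX1211 was 178, 204 and 201, below all 3 control libraries (0.783 ± 0.058 of the control mean). In N2 it was 512, 538 and 524, also below all 3 control libraries (553, 564 and 565). In QX1211 nspc-4 had 21.9, 28.1 and 33.1 normalized counts under PAR1, against 56.7, 44.0 and 28.0 in the control. It did not pass the test (log2 fold change -0.69 ± 0.27, adjusted p = 0.137). Without the transcript length correction nspc-4 and the nspc-2 pair passed in QX1211 under PAR1.

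Outside nspc, the call under POS1 over the 5 strains was nspe-7. In N2 it had 0.923, 4.07 and 8.14 normalized counts in the control and 15.0, 48.5 and 6.19 under POS1. The values were 1.6, 3.6 and 4.52 and 4.38, 21.7 and 15.3 for EG4348, and 2.74, 1.18 and 7.38 and 5.64, 23.7 and 19.2 for CB4856. They were lower in JU1088, with 0, 1.38 and 0 in the control and 4.03, 1.09 and 0.79 under POS1, and QX1211 had 9.84, 3.54 and 0 and 2.39, 8.29 and 4.57. The mean was higher in all 5 strains, and treated and control libraries overlapped in all 5. The log2 fold change averaged over the strains was 1.64 ± 0.46 (SE, adjusted p = 0.0621). The call was lost when QX1211 POS1 replicate 2, EG4348 control replicate 1, JU1088 control replicate 1 or JU1088 control replicate 3 was left out, with adjusted p from 0.104 to 0.139. The neighbouring nspe-1, nspe-2 and nspe-4 passed in no RNAi comparison.

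The nspd sum under PAR1 was above the control in every EG4348 library, 36.2, 9.37 and 28.9 against 5.99, 5.86 and 7.73, and there the msp sums went from 23.7, 53.6 and 38.6 to 396, 112.7 and 197. In the other 4 strains treated and control sums overlapped, and no nspd gene passed the test under either treatment. No nspa or nspb gene passed under either treatment in any strain.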

How the data were processed

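Libraries were stranded single-end mRNA reads of whole worms. Trimmomatic served the authors for trimming, and Salmon 1.4.0 for quantification (the submitters' processing notes also list 1.3.0) against a transcriptome of each strain, built from the N2 annotation and the strain's known variants. The deposited Salmon tables give estimated counts and TPM per transcript, and the authors' series table gives DESeq2 1.32.0 normalized counts (a signal scaled by library and transcript length). Here estimated counts were summed per gene, rounded to whole numbers and tested with edgeR 4.0.16 (quasi-likelihood F test, TMM, transcript length offsets, at least 10 reads over the libraries of the model) in R 4.3.3, with Benjamini-Hochberg adjustment over all genes. Calls needed an adjusted p under 0.1 and, for RNAi, a change above 1.5-fold. Control libraries (15) gave the strain tests and all 45 the RNAi tests. The steps were tested on simulated data. Floors for groups at 0 reads cover counting error only. The SE values come from the quasi-likelihood fit and include the spread between libraries.

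Genes named by rule were nspc-15 and, in each group, up to 3 with the highest mean level, up to 3 with the smallest strain p, those called under RNAi, and those with 0 reads in 9 libraries of a strain but at least 10 normalized counts in another. Others (nspc-1 to nspc-10, nspc-18, nspc-19, nspd-8 and nspd-10) were chosen after their values were seen. The members and lists were chosen with earlier results of these data known. Alternatives were DESeq2 1.42.0, RLE size factors, no length offset, other filters on low counts, a replicate block, merged identical paralogs, no fold minimum, and each library left out. The labels do not say that replicate numbers pair samples across groups. Same-numbered samples deviated together, with every correlation above 0.1, in 2 of 14 comparisons (POS1 in CB4856, 0.417, 0.462 and 0.192, and QX1211 against N2, 0.337, 0.165 and 0.168).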

Additional observations from a re-analysis of the deposited data

Results flagged for a closer look

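Under PAR1 the summed nspc level moved one way in every library of N2 and the other way in every library of 3 wild strains, and the difference between strains in these sums was not tested. The sum was 0.901 of the control mean in N2. It was 1.29 in JU1088, 1.19 in CB4856 and 1.14 in EG4348. The cluster X2 sum did the same, with 0.878 in N2 against 1.323 in JU1088, 1.19 in CB4856 and 1.17 in EG4348.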

How the results depend on the processing

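The RNAi fold changes of nspc-17 and nspe-7 kept their sign under the alternatives run, but some ratios of sums crossed 1. The nspd ratio of QX1211 to N2 (1.18) was 0.9167 without N2 control replicate 3, the nspa ratio of QX1211 (0.655) was 1.05 without N2 control replicate 1, and the nspe ratio of EG4348 (0.879) was 1.011 without N2 control replicate 2. The nspc ratio to the control in QX1211 went from 1.05 to 0.987 under POS1 and from 1.00 to 0.964 under PAR1 as a share of library reads, and under POS1 in EG4348 from 1.02 to 0.979 on the TPM scale. These 2 RNAi scales were chosen after seeing the data. With no fold minimum, the calls were 5 for PAR1 in JU1088, 1 for PAR1 in CB4856, 2 for POS1 in JU1088 and 4 for PAR1 over the 5 strains. Without the transcript length offset PAR1 in QX1211 had 3 calls, 2 of them the nspc-2 pair (1 measurement). The interaction had 2 calls with DESeq2 and 1 each with RLE size factors, filterByExpr and no filter. The strain test called 27 members, 25 with identical paralogs merged, 24 with DESeq2 and 18 with filterByExpr, which removed low genes from the test. The nspc ratio to N2 on the TPM scale was 1.196 in JU1088, 1.312 in EG4348 and 1.219 in CB4856, and 1.346 in EG4348 as a share of library reads. The nspe ratio in JU1088 was 0.6962 on the TPM scale.

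With each library left out in turn, calls ranged from 8 to 13 for JU1088 against N2, from 0 to 2 for PAR1 in JU1088 and for the interaction, and from 0 to 1 for PAR1 in EG4348, PAR1 in QX1211, POS1 in JU1088, and PAR1 and POS1 over the 5 strains. Ratios of sums to N2 ranged from 2.201 to 4.604 for nspa in CB4856, 1.381 to 1.455 for nspc in EG4348, 1.298 to 1.367 for nspc in CB4856, 0.1547 to 0.3334 for nspd in EG4348, 1.149 to 2.478 for nspd in CB4856, 0.9167 to 1.976 for nspd in QX1211, and 0.4517 to 0.6228 for nspe in JU1088. Others that ranged more than 1.5-fold were nspd in JU1088 (0.2784 to 0.9072), nspa in JU1088 (0.2094 to 0.6052), EG4348 (0.2102 to 0.4737) and QX1211 (0.4043 to 1.05), and nspb in EG4348 (0.2154 to 0.7029), CB4856 (1.075 to 1.836) and QX1211 (1.128 to 2.559). The cause of these changes was not tested.

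With the replicate block, 26 members were called by strain, and the comparisons with N2 gave 18 (QX1211), 15 (CB4856), 15 (EG4348) and 10 (JU1088), and 1 each for PAR1 and POS1 in JU1088 and POS1 over the 5 strains. The low nspa, nspb and nspd counts limit what could be detected for those groups.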
